A study of Sus scrofa with 35 samples.

Results

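The genes of the MHC class I pathway, named SLA in the pig, were followed in the longissimus dorsi of castrated male pigs, a muscle of the back: the heavy chains SLA-1, SLA-2, SLA-3, SLA-7 and SLA-8, the light chain B2M, the peptide transporter TAP1 and TAP2, and the immunoproteasome subunits PSMB8 and PSMB9. A member was any array probe, a spotted DNA of 60 bases, that the scanner files name for 1 of these 10 genes, whatever the case of the letters. This gave 43 probes of the 60305 on the array, for 9 of the 10 genes: 9 for B2M, 8 for SLA-3, 7 for SLA-1, 5 for TAP2, 4 each for SLA-8 and PSMB8, 3 for TAP1, 2 for PSMB9 and 1 for SLA-7. No probe is named for SLA-2, although 3 of the 20 heavy chain probes, SLA-1 probe 1 and SLA-3 probes 2 and 3, list an SLA-2 transcript in the files. A probe was kept if some group had it well above background on 75% or more of its arrays, as held for 42 of the 43 members and for 41517 probes in all. The probe left out, PSMB8 probe 4, was well above background on 1 array of 35. Probes of a gene are numbered here by their place on the transcript, with the unplaced ones last.

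The study compared Creole pigs, a Caribbean breed, Large White pigs and their F1 cross, each at thermoneutrality (TN) or under heat stress (HS), with 1 array per pig. Each of the 6 groups of breed and temperature held 6 arrays, except F1 HS, which held 5. TN is labelled 24 °C and HS 30 °C, but the protocol speaks of 5 days at 32 °C, and the labels and protocol thus disagree on the HS temperature. All pigs were raised at 1 site in Guadeloupe. The TN pigs were killed earlier, ahead of the challenge, so temperature and slaughter day cannot be told apart. Per the study's methods, all pigs of a breed were arranged in blocks of littermates, so each breed rests on few litters. The labels do not tie arrays to litters, so the tests below treat littermates as independent pigs. Their p-values do not account for litter, and a breed difference cannot be told apart from a difference between these few litters. Pigs also shared pens and slaughter days, per the study's methods, and are treated as independent there too. The p-values of HS against TN, and the shares of all probes that pass, carry this limit. Of 11 muscle markers, 10 had a kept probe, with mean levels of 13.5 to 19.4. Here and below a level is the quantile-normalised log2 intensity of a probe, and a difference is a difference of log2 levels. Arrays had 35219 to 45743 probes well above background, the correlation between any 2 arrays was 0.960 to 0.996, and no spot was saturated.

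MHC class I molecules show peptides from inside the cell to CD8 T cells and are carried by almost all nucleated cells. The proteasome cuts proteins into peptides, and interferon adds PSMB8 and PSMB9, which replace the standard catalytic subunits PSMB5 and PSMB6. TAP1 and TAP2 form the pump that moves the peptides into the endoplasmic reticulum, where they are loaded on a heavy chain held by B2M. In the pig, SLA-1, SLA-2 and SLA-3 encode the classical heavy chains, which are highly polymorphic, and haplotypes differ in which of them they carry. SLA-7 and SLA-8 belong to the nonclassical heavy chains, which vary little. Because heavy chain genes resemble each other and differ between haplotypes, a probe may bind the RNA of more than 1 of them or bind 1 allele better than another, and a heavy chain probe reads RNA that matches it, not a gene.

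Among the members, Creole pigs read lower than Large White pigs at 6 of 42 probes, and the largest of these differences lay in SLA-3. The count is 14.3% of the members, where 3.64% of all kept probes were called in the same contrast and 1.92% were called lower (limma, adjusted p under 0.05 over all kept probes). The difference was negative for 37 of the 42 members, with a median of -0.21 against 0.01 over all kept probes, of which 52.8% were positive. Several probes read the same gene and vary together, so counts of member probes, here and below, are not counts of independent results. The called probes were SLA-3 probes 1, 2 and 6, SLA-8 probe 4, SLA-1 probe 4 and TAP2 probe 4. No probe of B2M, TAP1, PSMB8 or PSMB9 was called, and the 3 PSMB8 probes differed by 0.11 to 0.15. In whole muscle, fewer cells of a type and less RNA per cell cannot be told apart.

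**Figure D1:**
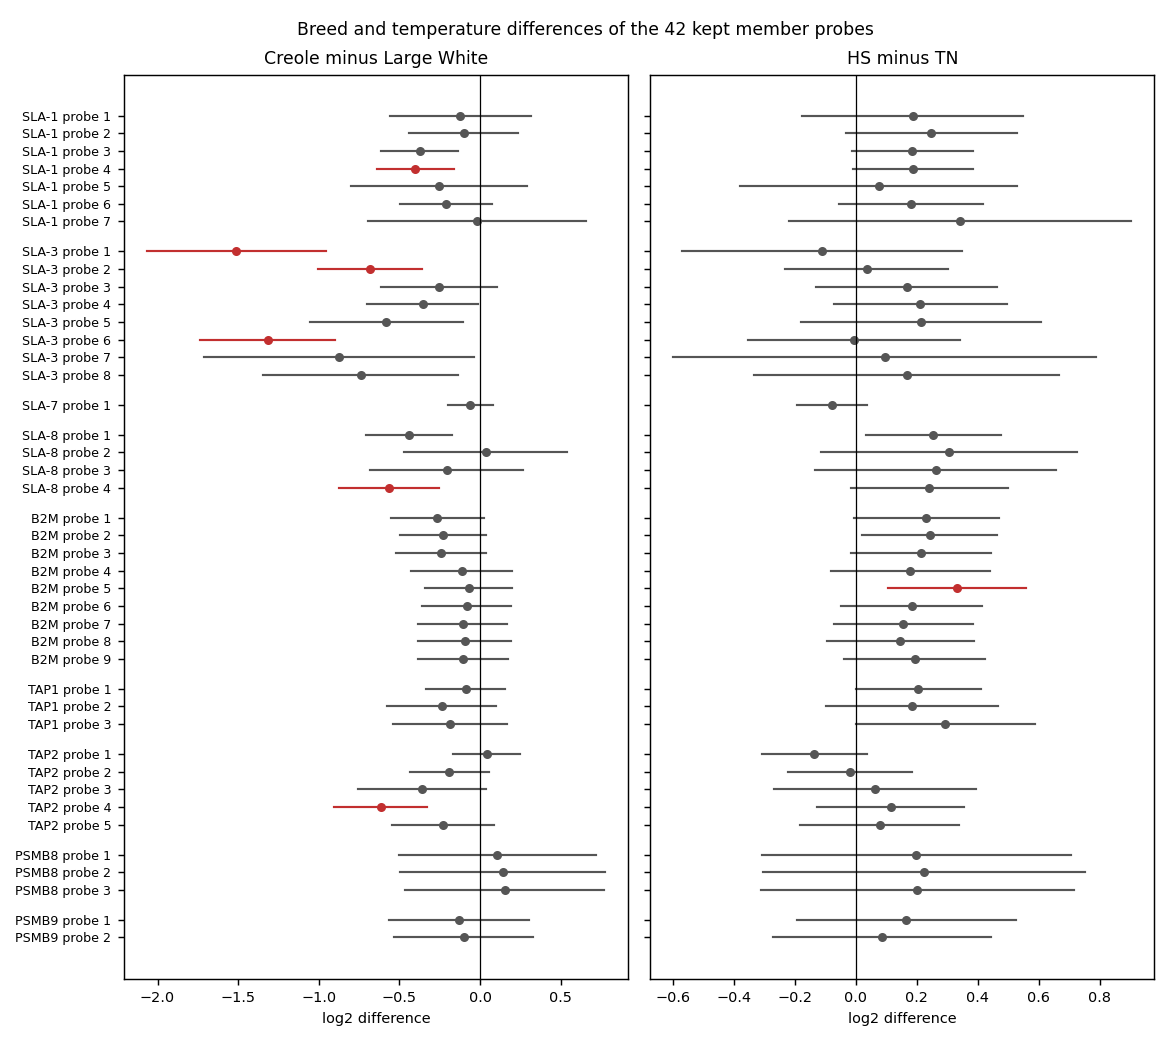
Difference of log2 level for each of the 42 kept probes, Creole minus Large White on the left and HS minus TN on the right. Points are the limma estimates, bars the 95% confidence intervals and red the probes called over all kept probes. The intervals of SLA-3 probes 1 and 6 lie farthest below 0 in the breed contrast, and B2M probe 5 is the 1 red point in the temperature contrast.

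The 8 SLA-3 probes, which read a classical heavy chain, gave breed differences from -1.51 to -0.25, and 3 of them were called. SLA-3 probe 6, which starts at base 1425 of the listed transcript, read from 11.56 to 13.03 (median 12.63) in Creole TN and from 11.62 to 13.99 (median 11.77) in Creole HS. It read from 12.93 to 13.97 (median 13.60) in Large White TN and from 13.39 to 13.96 (median 13.62) in Large White HS. In the cross it read from 12.75 to 14.24 (median 13.29) in F1 TN, and 13.33, 13.57, 13.61, 13.65 and 13.79 in F1 HS. Of the 12 Creole pigs, 10 were below the lowest Large White pig, and of the 11 F1 pigs 1 was. The difference of Creole from Large White was -1.32 ± 0.21 (SE), 2.49-fold lower, with adjusted p = 0.000124 in limma.

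SLA-3 probe 1, which starts at base 565, moved the same way. Its levels ran from 8.50 to 11.48 (median 10.63) in Creole TN and from 8.84 to 11.15 (median 9.32) in Creole HS, and from 11.19 to 11.89 (median 11.29) in Large White TN and 10.90 to 12.31 (median 11.35) in Large White HS. The F1 TN pigs lay between 10.19 and 12.08 (median 11.05), and the F1 HS pigs at 10.92, 11.08, 11.32, 11.54 and 12.30. Again 10 of 12 Creole pigs and 1 of 11 F1 pigs were below the lowest Large White pig. The breed difference was -1.51 ± 0.27, or 2.85-fold lower (limma, adjusted p = 0.000847). The SD over Creole pigs was 0.97, against 0.58 in F1 and 0.38 in Large White pigs, so that the spread of this probe was widest in Creole pigs.

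SLA-3 probe 2, which lists SLA-2 as well as SLA-3 transcripts and so may read either, ranged from 11.47 to 12.42 (median 11.74) in Creole TN, from 11.25 to 12.99 (median 11.56) in Creole HS, from 12.22 to 12.89 (median 12.44) in Large White TN and from 11.88 to 13.05 (median 12.50) in Large White HS. F1 TN pigs lay between 11.67 and 12.67 (median 12.23), and F1 HS pigs at 11.85, 12.30, 12.30, 12.49 and 12.98. The difference was -0.68 ± 0.16 (adjusted p = 0.00962), and 9 of 12 Creole pigs were below the lowest Large White pig. The other SLA-3 probes were not called: the differences were -0.25 for probe 3, -0.36 for probe 4, -0.58 for probe 5, -0.87 for probe 7 and -0.74 for probe 8, with adjusted p between 0.186 and 0.546. The 95% interval of probe 3 ran from -0.61 to 0.10 and that of probe 7 from -1.71 to -0.04.

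**Figure D2:**
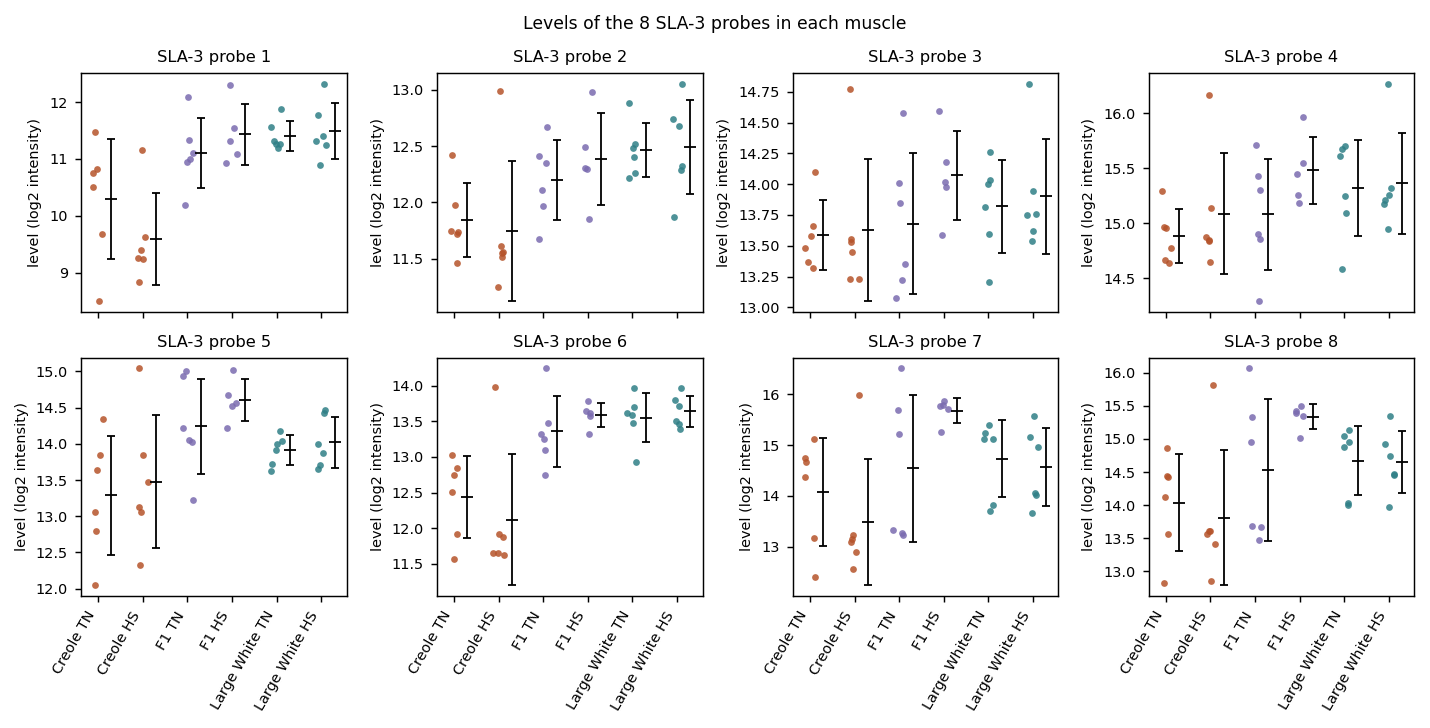
Levels (log2 intensity) of the 8 SLA-3 probes in the 6 groups, a point per pig, with the mean and SD. For probes 1 and 6 most Creole points lie below all Large White points, whereas for probes 3 and 4 the breeds overlap. For probe 7 the F1 TN pigs lie in separate sets, 13.24 to 13.32 and 15.23 to 16.51.

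Probe 7 spread widely in some groups and little in others. It read 13.24, 13.27, 13.32, 15.23, 15.69 and 16.51 in the 6 F1 TN pigs, and 15.26, 15.72, 15.77, 15.79 and 15.86 in the 5 F1 HS pigs. Its SD over pigs of a breed was 1.15 in Creole, 1.19 in F1 and 0.73 in Large White. Probe 8 followed it with r = 0.99 over the 35 arrays after the group means were taken off. Neither probe was called in a breed contrast.

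The breed difference of SLA-3 probes 1 and 6 was also read at each temperature on its own, from a model with a mean per group. At HS it was -1.90 ± 0.37 for probe 1 (adjusted p = 0.0118) and -1.52 ± 0.29 for probe 6 (adjusted p = 0.0101), and these were the 2 of 42 members called, 4.76%, where 0.296% of all kept probes were called. At TN it was -1.12 ± 0.37 for probe 1 and -1.11 ± 0.29 for probe 6, and 0 of 42 members were called by limma, where 0.997% of all probes were. At TN 7 members had an unadjusted p under 0.05, and the lowest adjusted p was 0.0529, for probe 6. Here and below, the share of all kept probes with an unadjusted p under 0.05 was not taken. Such counts of members therefore cannot be read as more or fewer than over the array. The change of the breed difference with temperature was not called for any member (0 of 42 by the limma interaction test, 0 with an unadjusted p under 0.05, lowest adjusted p 0.963, and 0% of all probes called).

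The slide is a batch that held several groups: 4 slides held 8 arrays each, and the last held 3, of 1 Creole HS and 2 Large White TN pigs, where breed and temperature cannot be told apart and no within-slide value was taken. Within the 4 slides of 8 arrays, the difference of Creole from Large White ran from -2.59 to -0.65 for SLA-3 probe 1, from -2.02 to -0.70 for probe 6 and from -1.09 to -0.17 for probe 2, all below 0. Without Creole HS replicate 1, which read highest of its group for all 3 probes, the differences were -1.63, -1.48 and -0.79. With the mean of the leukocyte markers as a covariate they were -1.43, -1.22 and -0.59, each still called. That covariate raised the calls over all kept probes from 1513 to 2242.

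The F1 cross was compared with both parent breeds, and the contrasts with Creole and with Large White share the F1 arrays, while the Creole arrays also enter the contrast above. Against Creole pigs, F1 pigs read higher at 3 of 42 members, all in SLA-3, or 7.14%, where 0.477% of all kept probes were called and 0.301% were called higher. The differences were 1.31 ± 0.28 for probe 1 (2.48-fold, adjusted p = 0.0153), 1.18 ± 0.21 for probe 6 (2.27-fold, adjusted p = 0.00365) and 1.03 ± 0.24 for probe 5 (2.05-fold, adjusted p = 0.0319). SLA-3 probe 5 read from 12.04 to 15.04 over the 12 Creole pigs (median 13.29), from 13.23 to 15.02 over the 11 F1 pigs (median 14.53) and from 13.63 to 14.46 over the 12 Large White pigs (median 13.95). At this probe 6 of 11 F1 pigs were above the highest Large White pig and 7 of 12 Creole pigs were below the lowest. Its call against Creole pigs was lost in 9 of the 35 fits that left out 1 array, with differences of 0.91 to 1.17 over all 35 and adjusted p of up to 0.0725: without Creole TN replicates 3 or 4, Creole HS replicates 2, 3 or 4, F1 TN replicates 2 or 6, or F1 HS replicates 4 or 5.

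Against Large White pigs, 0 of 42 members were called in F1 pigs by limma, where 0.525% of all probes were. An unadjusted p under 0.05 was found for 3 members, the PSMB8 probes, with differences of 0.70 to 0.73 and a lowest adjusted p of 0.382. Against the midpoint of the parent breeds, 0 of 42 members were called by limma, where 0.246% of all probes were, and the lowest adjusted p was 0.182. An unadjusted p under 0.05 was found for 11 members, again without a share of all kept probes beside it. The 8 SLA-3 probes all read above the midpoint, by 0.11 to 0.85, and the 3 PSMB8 probes by 0.65.

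Some member probes overlap in sequence when aligned to each other without gaps, within a gene or between SLA-1 and SLA-3. Of the pairs, 12 share at least 30 bases (31 to 59 of 60) with at most 15% of them different, and 4 of these pairs have no difference in the shared stretch. For each pair the log2 ratio of its probes was compared between the 12 Creole and the 12 Large White pigs by a two-sided permutation test within temperature (100000 permutations, adjusted over the 12 pairs). The ratio differed for 3 of the 12 pairs, all of heavy chains, as are most of the 12. SLA-3 probes 2 and 6, which are in these pairs, were also called on their own. The ratios that hold them thus do not stand apart from those calls. Overlapping pairs elsewhere on the array were not tested. The sequences of these pairs are given because the probes differ by few bases or by their ends alone. Capitals mark the bases that differ within a pair, and positions are counted from 1 at the 5′ end of the probe named first.

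The first pair is SLA-1 probe 1 and SLA-3 probe 2, which overlap by 59 bases and differ by G7C, G18T, G19A and C39G:
SLA-1 probe 1: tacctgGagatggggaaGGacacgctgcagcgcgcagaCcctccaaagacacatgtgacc
SLA-3 probe 2: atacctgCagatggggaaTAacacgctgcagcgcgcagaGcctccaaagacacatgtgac
The log2 ratio of SLA-1 probe 1 to SLA-3 probe 2 was 1.41 to 1.81 in Creole pigs (median 1.57), 0.67 to 1.71 in F1 pigs (median 1.48) and 0.68 to 1.61 in Large White pigs (median 1.02). Creole pigs were thus close together, and Large White and F1 pigs were spread. The ratio was 0.56 higher in Creole than in Large White pigs (permutation test, p = 2e-05, adjusted p = 0.00024). On its own SLA-1 probe 1 differed by -0.12 between the breeds and was not called.

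The second pair is SLA-8 probe 2 and SLA-8 probe 3, which overlap by 58 bases and differ by G58A:
SLA-8 probe 2: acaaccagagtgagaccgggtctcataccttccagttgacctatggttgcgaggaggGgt
SLA-8 probe 3: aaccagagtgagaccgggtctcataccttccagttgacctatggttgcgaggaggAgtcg
Their log2 ratio was 0.40 to 0.64 in Creole pigs (median 0.50), 0.10 to 0.64 in F1 pigs (median 0.48) and 0.10 to 0.48 in Large White pigs (median 0.26). It was 0.24 higher in Creole than in Large White pigs (permutation test, p = 0.00011, adjusted p = 0.00066). The levels of the probes moved together with r = 0.98 within groups (n = 35 arrays).

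The third pair is SLA-3 probe 6 and SLA-3 probe 5, which share 42 bases without a difference, of which the first 30 of probe 6 (bases 1 to 30, the same as bases 19 to 48 of probe 5) are printed:
SLA-3 probe 6: tccttatgctaagttcattgccctgactgg
SLA-3 probe 5: tccttatgctaagttcattgccctgactgg
The log2 ratio of probe 6 to probe 5 was -2.23 to -0.31 in Creole pigs (median -1.10), -1.46 to -0.48 in F1 pigs (median -0.90) and -1.06 to -0.03 in Large White pigs (median -0.20). The difference of Creole from Large White was -0.73 (permutation test, p = 0.00067, adjusted p = 0.00268). These probes differ only in the 18 bases that each has outside the shared stretch.

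The other 9 pairs did not pass the test. SLA-3 probes 7 and 8 overlap by 57 bases and differ by C30A and A60G, and SLA-1 probes 2 and 7 overlap by 43 bases and differ by A23G and T42A; stretches of 30 bases are shown, which hold C30A of the former and both differences of the latter, because their correlations across pigs were far apart:
SLA-3 probe 7: acagttccaagggtCggtttagaaataggg
SLA-3 probe 8: acagttccaagggtAggtttagaaataggg
SLA-1 probe 2: gggatAataaatgagagatttcctTagttt
SLA-1 probe 7: gggatGataaatgagagatttcctAagttt
The printed stretches are bases 16 to 45 of SLA-3 probe 7, 13 to 42 of SLA-3 probe 8, 18 to 47 of SLA-1 probe 2 and 1 to 30 of SLA-1 probe 7. Within groups the levels of SLA-3 probes 7 and 8 correlated with r = 0.99 and those of SLA-1 probes 2 and 7 with r = 0.18 (n = 35 arrays). The log2 ratio of SLA-3 probe 7 to probe 8 was -0.52 to 0.30 in Creole pigs and -0.45 to 0.27 in Large White pigs, and differed by -0.13 between them (adjusted p = 0.617 by permutation). The log2 ratio of SLA-1 probe 2 to probe 7 ran from 5.38 to 8.53 in Creole pigs and from 6.34 to 9.04 in Large White pigs, a wide range within both breeds.

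For comparison, B2M probes 2 and 3, of the light chain, share 59 bases without a difference. Their ratio was -0.51 to -0.30 in Creole pigs and -0.50 to -0.29 in Large White pigs, a difference of 0.01 (permutation test, adjusted p = 0.682), and r within groups was 0.99.

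**Figure D3:**
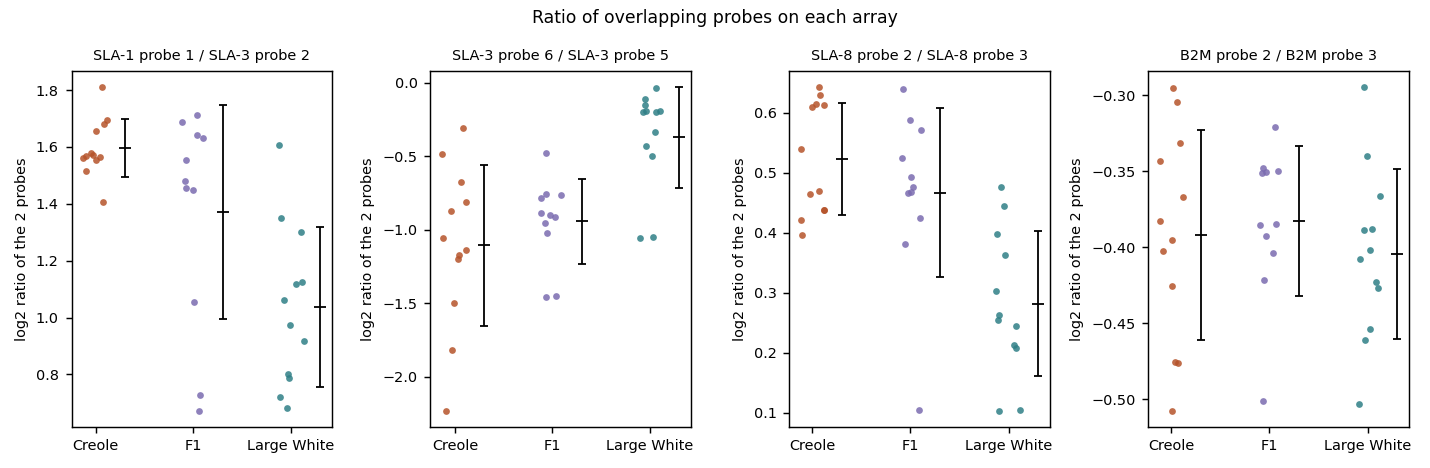
Log2 ratio of the paired probes, a point per pig, in the 3 breeds. The pair SLA-1 probe 1 to SLA-3 probe 2 is tight in Creole pigs (1.41 to 1.81) and wide in Large White pigs (0.68 to 1.61), and the B2M pair lies between -0.51 and -0.29 in all breeds.

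SLA-3 probe 1 is in none of the 12 pairs and is printed for its breed difference, the largest of all member probes:
SLA-3 probe 1: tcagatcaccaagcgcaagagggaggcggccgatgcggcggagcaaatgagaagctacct

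SLA-1, the other classical heavy chain with probes, was called at 1 of its 7 probes. SLA-1 probe 4 read from 16.10 to 16.88 (median 16.47) in Creole TN, from 16.43 to 17.47 (median 16.75) in Creole HS, from 16.61 to 17.33 (median 16.97) in Large White TN and from 16.63 to 17.28 (median 17.20) in Large White HS. F1 TN pigs lay between 16.37 and 17.28 (median 16.67), and F1 HS pigs at 16.69, 16.81, 16.90, 16.97 and 17.06. Of 12 Creole pigs 6 were below the lowest Large White pig, and the difference was -0.40 ± 0.12 (1.32-fold lower, adjusted p = 0.0458 in limma). The files describe this probe as PDZ and LIM domain 7, but its sequence overlaps SLA-1 probe 3 by 58 bases with the 1 difference A60C, and their levels correlated with r = 0.96 within groups. Probe 3 gave -0.37 ± 0.12 and was not called (adjusted p = 0.069). The call of probe 4 was lost in 23 of the 35 fits that left out 1 array each, with differences of -0.47 to -0.36 over all 35 and adjusted p of up to 0.089.

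The other 5 SLA-1 probes differed by -0.26 to -0.02 between the breeds and were not called. SLA-1 probe 7 ranged widely within groups, from 7.35 to 10.81 in Creole TN and from 8.42 to 11.19 in F1 HS. SLA-1 probe 5 ranged from 13.45 to 15.98 in Creole HS. The correlations within groups between SLA-1 probes ran from -0.07 to 0.96, against 0.84 to 0.99 for the 9 B2M probes and 0.99 for PSMB8 and PSMB9.

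SLA-8, a nonclassical heavy chain, was called at probe 4, which starts at base 909. This probe read from 10.16 to 10.85 (median 10.51) in Creole TN, from 10.16 to 11.85 (median 10.71) in Creole HS, from 10.66 to 11.73 (median 11.09) in Large White TN and from 11.07 to 11.46 (median 11.36) in Large White HS. F1 TN pigs lay between 10.52 and 11.40 (median 10.97), and F1 HS pigs at 10.82, 11.12, 11.28, 11.37 and 11.57. Of the Creole pigs, 6 of 12 were below the lowest Large White pig. The difference was -0.56 ± 0.15, or 1.48-fold lower (adjusted p = 0.0282 in limma), and it ran from -1.01 to -0.39 within slides. The call was lost without Creole TN replicate 4, Creole HS replicates 2, 3 or 4, or Large White TN replicate 1, with adjusted p of up to 0.0586. The other SLA-8 probes start between bases 265 and 312, and differed by -0.44 for probe 1 (adjusted p = 0.0524), 0.03 for probe 2 and -0.21 for probe 3. At probes 2 and 3, 7 of 11 F1 pigs were above the highest Large White pig, at 8.97 and 8.49. Some Creole pigs were above it too, up to 10.14 and 9.53.

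SLA-7, another nonclassical heavy chain, had 1 probe. Its levels lay between 5.76 and 6.55 over all 35 pigs, and it differed by -0.06 between Creole and Large White pigs (adjusted p = 0.761). It was the 1 heavy chain gene whose probe correlated negatively with B2M over the arrays, with r = -0.36 within groups (n = 35).

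B2M, which holds every class I heavy chain at the cell surface, did not differ between Creole and Large White pigs at any of its 9 probes by the test used, with differences of -0.26 to -0.07. TAP1 gave -0.24 to -0.09 over 3 probes, PSMB9 -0.13 and -0.10, and TAP2, the other chain of the peptide pump, 0.04 to -0.36 over 4 probes. TAP2 probe 4, which starts at base 2783, was the exception among these genes. It read from 6.35 to 7.46 (median 6.76) in Creole TN, from 6.91 to 7.99 (median 7.13) in Creole HS, from 7.09 to 8.13 (median 7.63) in Large White TN and from 7.40 to 8.05 (median 7.82) in Large White HS. F1 TN pigs lay between 7.33 and 8.24 (median 7.40), and F1 HS pigs at 7.11, 7.26, 7.35, 7.35 and 7.42. Its difference was -0.62 ± 0.14 (1.53-fold lower, adjusted p = 0.00892 in limma), 7 of 12 Creole pigs were below the lowest Large White pig, and it ran from -1.14 to -0.14 within slides. The breed differences of the TAP2 probes were 0.04, -0.19, -0.36, -0.62 and -0.23 from probe 1 to probe 5.

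Between HS and TN, 1 of the 42 members, B2M probe 5, passed the test. That is 2.38% of the members, where 16% of all kept probes were called and 7.73% were called higher. The difference HS minus TN was positive for 37 of 42 members, with a median of 0.18, against -0.02 and 43.9% positive over all kept probes, and 5 members had an unadjusted p under 0.05.

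B2M probe 5 read from 13.83 to 14.64 (median 14.25) in Creole TN and from 14.35 to 15.61 (median 14.66) in Creole HS. It read from 13.99 to 15.08 (median 14.28) in F1 TN, and 14.54, 14.58, 14.58, 14.65 and 14.89 in F1 HS. It read from 14.01 to 14.71 (median 14.56) in Large White TN and from 14.16 to 15.07 (median 14.87) in Large White HS. TN and HS pigs overlapped in every breed. The difference was 0.33 ± 0.11, or 1.26-fold (adjusted p = 0.0369 in limma), and it was no longer called in 11 of the 35 fits that left out 1 array each, Creole HS replicate 1 among them (0.27, adjusted p = 0.0605). Within slides it ran from -0.04 to 0.70. The other 8 B2M probes read 0.15 to 0.24 higher in HS pigs and were not called.

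No heavy chain, TAP or immunoproteasome probe was called between HS and TN. The differences were 0.07 to 0.34 for SLA-1, -0.11 to 0.21 for SLA-3, 0.24 to 0.31 for SLA-8, 0.18 to 0.29 for TAP1, -0.14 to 0.11 for TAP2, 0.20 to 0.22 for PSMB8 and 0.08 and 0.16 for PSMB9. The SLA-7 probe gave -0.08. Within breeds, 0 of 42 members were called by limma in Creole, F1 or Large White pigs, where 1.91%, 0.00482% and 0.00482% of all probes were. The members with an unadjusted p under 0.05 were 5 in Creole pigs, 3 of B2M and 2 of SLA-1, 0 in F1 pigs and 1 of SLA-8 in Large White pigs. SLA-3 probe 1 gave -0.71 ± 0.37 in Creole pigs, the lowest of the members there, with a 95% interval of -1.47 to 0.06.

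The MHC class II genes, whose products show peptides from outside the cell and are carried mainly by antigen-presenting cells, were set beside class I. Of 9 class II genes, each read from its brightest kept probe, 7 were called higher in HS pigs, where 7.73% of all kept probes were called higher, with a median difference of 0.52 over the 9 genes. SLA-DQA1, a class II alpha chain, rose by 0.66 ± 0.16 (adjusted p = 0.00664), SLA-DRA, another alpha chain, by 0.61 ± 0.15 (adjusted p = 0.00501), and CD74, the invariant chain that guides class II molecules, by 0.39 ± 0.13 (adjusted p = 0.0371). SLA-DOA gave 0.48 and SLA-DOB 0.01, and neither was called. The difference between class I and class II was not tested. Between Creole and Large White pigs 0 of the 9 class II genes were called, where 3.64% of all kept probes were.

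**Figure D4:**
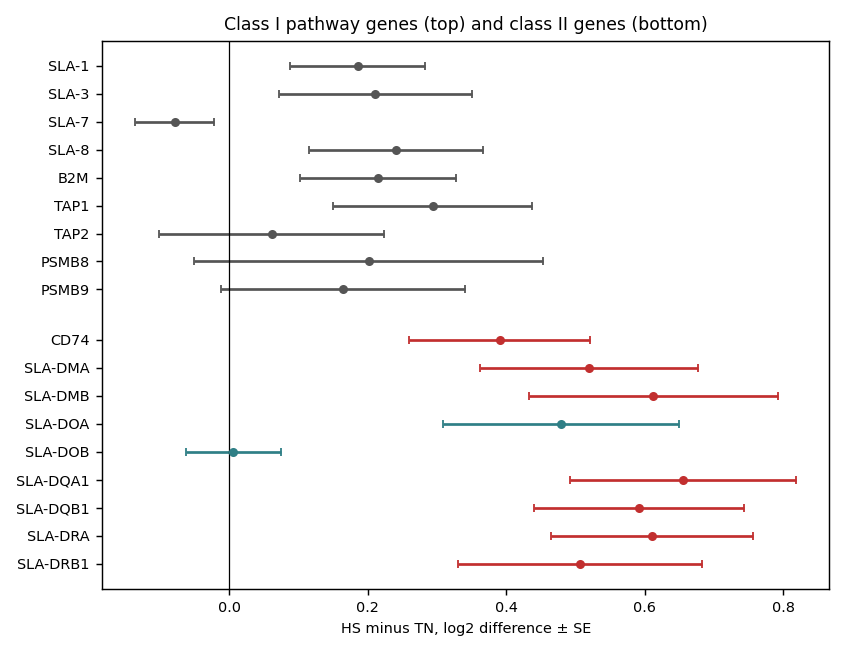
Difference HS minus TN (log2) with its SE for the class I members, each read from its brightest kept probe, and for the class II genes. Red marks genes called over all kept probes. The 7 red class II genes lie at 0.39 to 0.66, and none of the class I members shown is red.

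The partners of the pathway were followed as a list of 22 genes, of which 16 had a kept probe. In HS pigs 3 were called higher and 1 lower, where 16% of all kept probes were called and 7.73% were called higher, and the median difference of the 16 genes was 0.09. CANX, or calnexin, a chaperone of the new heavy chain, rose by 0.29 ± 0.10 (adjusted p = 0.041), B4GALT1, a galactosyltransferase of the Golgi, by 0.30 ± 0.09 (adjusted p = 0.0192) and CD1D, a class I-like molecule that shows lipids, by 0.54 ± 0.12 (adjusted p = 0.00392). NLRC5, the transactivator of class I genes, fell by 0.29 ± 0.10 (adjusted p = 0.0465). TAPBP, or tapasin, which ties the heavy chain to the pump, gave -0.04, CALR, or calreticulin, gave 0.19, and ERAP1, which trims peptides, gave 0.09; none was called. Between Creole and Large White pigs 0 of the 16 partners were called, where 3.64% of all kept probes were.

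The standard proteasome subunits PSMB5, PSMB6 and PSMB7 differed by -0.03, -0.07 and -0.01 between HS and TN. In that contrast and between Creole and Large White pigs 0 of 3 were called, where 16% and 3.64% of all kept probes were. Of 35 genes of the interferon axis, which induces class I genes, 31 had a kept probe, and in HS pigs 3 were called higher and 1 lower. These 4 of 31 genes are no larger a share than the 16% of all kept probes called in that contrast. They were IFIT2 (0.41 ± 0.13, adjusted p = 0.0317) and IFIT3 (0.44 ± 0.14, adjusted p = 0.026), antiviral proteins, STAT2 (0.22 ± 0.07, adjusted p = 0.0364), a factor of the interferon signal, and IFNG, or interferon gamma, which fell by 0.15 ± 0.04 (adjusted p = 0.0157). Of the 31 genes, 0 were called between Creole and Large White pigs, where 3.64% of all kept probes were.

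Some markers of cell types were called in the same contrasts. Of 23 leukocyte markers, 17 had a kept probe. In HS pigs 4 of the 17 were called higher, where 7.73% of all kept probes were. These were AIF1, CSF1R, FCER1G and TYROBP, all genes of macrophages and related cells, by 0.89 to 0.99. The macrophage markers CD14, CD68 and CD163 of the list were not called. In Creole against Large White pigs 2 were called lower, where 1.92% of all kept probes were. CD3D gave -0.64 and CD8A -0.44, both genes of T cells, while the T cell markers CD3E and CD2 were not called. The mean level of the 17 markers ran from 7.44 to 8.86 in Creole TN and from 8.40 to 9.54 in Creole HS. It ran from 8.18 to 9.24 in F1 TN, 8.55 to 8.92 in F1 HS, 7.85 to 9.28 in Large White TN and 8.37 to 9.57 in Large White HS. With this mean as a covariate the HS difference of B2M probe 5 was 0.08 (adjusted p = 0.636 in limma) and 0 of 42 members were called between HS and TN. Over all kept probes the calls of that contrast went from 6654 to 2714. The breed difference was still called at all 6 probes, and over all kept probes its calls went from 1513 to 2242. Of 8 endothelial markers 3 were called lower in Creole pigs, among them KDR by -0.96, against the same 1.92% of all kept probes. Of 7 connective tissue markers 2 were, COL3A1 by -0.43 and DCN by -0.28. In HS pigs 2 of the 7 connective tissue markers were called higher, and 1 of 8 endothelial and 1 of 3 erythroid markers lower. Of 10 muscle markers 1 was called higher and 2 lower in HS pigs, and of 5 adipocyte markers 0 were called, where 16% of all kept probes were called. The part of these markers in the breed and temperature differences was not tested.

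Several genes of the pathway varied together from pig to pig, whereas SLA-7 did not. With each gene read from its brightest kept probe and the group means taken off, B2M correlated over the 35 arrays with PSMB9 at r = 0.90 (rho 0.82), with TAP1 at 0.89 (0.88), with SLA-1 at 0.87 (0.83), with SLA-3 at 0.71 (0.54), with PSMB8 at 0.64 (0.44), with TAP2 at 0.62 (0.41) and with SLA-8 at 0.52 (0.45). SLA-7 correlated negatively with each of the other 8 genes, from r = -0.48 with SLA-3 to -0.12 with TAP2. By rank it was slightly positive with PSMB8 (rho 0.067) and TAP2 (rho 0.015). The SLA-7 probe was dim, with a mean level of 6.23 against a median of 8.02 over all kept probes. TAP2, read from probe 3, correlated at 0.11 with SLA-3 (rho -0.20) and 0.0073 with SLA-8 (rho -0.23). Its value depended on the probe: the TAP2 probes correlated with each other at -0.26 to 0.87. With B2M they ran from -0.36 (probe 1) to 0.82 (probe 5). These are descriptions, since the arrays share slide, depth and cell content. B2M correlated with the mean of the leukocyte markers at r = 0.81 and with the mean of the interferon genes at 0.70. Of 9256 other genes compared, those most like B2M were TNFSF13B (r = 0.90), PTPRO (0.90), IFI35 (0.88), C2 (0.88) and C15ORF48 (0.87). Among those most like TAP1 were PSME1 (0.86), IRF7 (0.83), PTPRO (0.83) and C2 (0.83). For PSMB8 the closest gene reached r = 0.76.

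**Figure D5:**
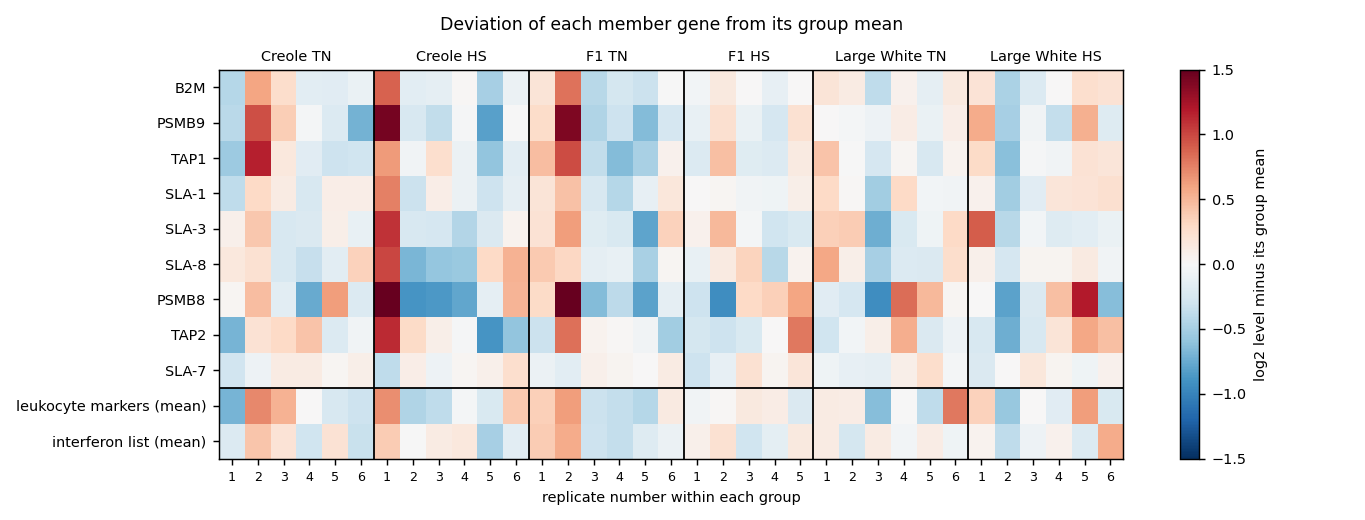
Deviation of each gene from its group mean (log2, colour limited to 1.5 in either direction) in the 35 arrays, with the mean of the leukocyte markers and of the interferon genes in the last rows. Creole HS replicate 1 reads high for 8 of 9 genes and for both lists, and Large White HS replicate 2 reads low for 8 of 9 genes.

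Some pigs stood apart across the genes. Creole HS replicate 1 read highest of its group for 8 of the 9 genes and lowest for SLA-7, and also had the highest leukocyte and interferon means of its group. Its levels were 16.72 for B2M, 13.14 for PSMB9 and 11.95 for PSMB8, where the other Creole HS pigs reached at most 15.85, 11.70 and 10.32. F1 TN replicate 2 read highest of its group for 7 genes. Large White HS replicate 2 read lowest of its group for 8 genes and Large White TN replicate 3 for 7.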

How the data were processed

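Muscle RNA of 35 pigs was hybridised to 1-colour Agilent arrays, and the authors quantified the spots with Feature Extraction 10.10.1.1. The deposited scanner files give linear intensity per spot, and the deposited value table holds log2 values that the authors quantile-normalised and filtered on expressed probes, and was used as an alternative. The median intensity of 60306 spots was quantile-normalised without background subtraction and log2 was taken. The 105 spots flagged as outliers were left out before spots of the same probe were averaged.

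For all 41517 kept probes limma 3.58.1 (R 4.3.3) fitted breed and temperature as additive terms, the fixed part of the study's model, or with a mean per group, and p-values were adjusted by Benjamini-Hochberg over all of them at 0.05. Confidence intervals are 95% with 31 residual degrees of freedom. Pen, slaughter day, father and mother, random terms of the study's model, are not in the labels. With these terms the study called fewer muscle probes for temperature than the additive fit here. The number of arrays limits the precision. On simulated data 96% (HS minus TN) and 97% (Creole minus Large White) of 200 probes changed by 1 log2 were recovered, with 9 and 12 false calls. The simulated noise was independent between pigs and held no litter, slide or cell content effect. The members rose by at most 0.34 in HS pigs, so this recovery does not tell how well changes of that size would be found.

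The members are all probes named for the 10 genes; each gene is read from its brightest kept probe where 1 probe is used, and called list genes are named with a few others. Members and lists were chosen with earlier results of these data known. Replicate numbers follow the order of deposition and pair nothing. Alternatives were the scaling, background correction, filter, slide, array weights, brightness and leukocyte covariates, naming by accession, other probes and leaving out each array. Some items were left out and are not reported here.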

Additional observations from a re-analysis of the deposited data

Results flagged for a closer look

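For 16 member probes in the 6 groups, 96 sets of 5 or 6 arrays were searched for an array whose gap to the next was large against the range of its group (Dixon's criterion, 95%), and 11 were found, where chance flags about 1 in 20. Of these, 8 were the highest value of Creole HS and came from replicate 1: B2M probe 3 at 16.72, B2M probe 5 at 15.61, PSMB9 probe 1 at 13.14, SLA-3 probe 1 at 11.15, SLA-3 probe 2 at 12.99, SLA-3 probe 4 at 16.17, SLA-3 probe 6 at 13.99 and TAP2 probe 4 at 7.99. The same array had the highest leukocyte and interferon means of its group, 9.54 and 10.68, and their part in these values was not tested.

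SLA-3 probe 4 was also far above the others in Large White HS replicate 1, at 16.27. TAP1 probe 3 was far below the others in Large White HS replicate 2, at 12.24. TAP2 probe 4 was far above the others in F1 TN replicate 2, at 8.24.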

How the results depend on the processing

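The breed count moved little. Creole minus Large White called 4 to 8 members over 13 alternatives (6 as reported) and 4 to 9 when 1 array was left out, 9 without Creole HS replicate 1. SLA-3 probes 1, 2 and 6 and TAP2 probe 4 were called in all 35 fits that left out 1 array, SLA-8 probe 4 was lost in 5 and SLA-1 probe 4 in 23. F1 minus Creole called 2 to 3 members over the alternatives and 2 to 5 when 1 array was left out, 5 without Creole HS replicate 1. The 3 overlapping pairs were called under each alternative run and with each array left out. The temperature count moved more. Against 1 as reported it was 0 with the processed signal scaled to the 75th percentile, with the median scaling, with array brightness or the leukocyte mean as a covariate and with members named by accession (23 probes), 2 with slide as a fixed block and 4 with array weights. It was 0 to 3 when 1 array was left out, 3 without F1 TN replicate 2 and 0 without Creole TN replicates 1, 4 and 5, Creole HS replicate 1, F1 TN replicates 4 and 5, F1 HS replicate 3, Large White TN replicate 3 or Large White HS replicates 1, 4 and 5. Over all kept probes the temperature contrast called 6654, but 2092 with the brightness and 2714 with the leukocyte covariate. Creole minus Large White called 1513, but 2242 with the leukocyte covariate. F1 minus Creole called 198, but 320 with the brightness covariate, 528 with the leukocyte covariate and 453 with array weights. The causes were not tested.

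Directions that turned were of differences not called, except for SLA-8. For HS minus TN the leukocyte covariate gave -0.072 for B2M probe 3, -0.28 for PSMB8 probe 3, -0.26 for PSMB9 probe 1, -0.014 for SLA-1 probe 3, -0.037 for SLA-3 probe 4, -0.027 for TAP1 probe 3 and -0.14 for TAP2 probe 3. The brightness covariate gave -0.15 for PSMB8 probe 3 and -0.046 for TAP2 probe 3, and array weights gave -0.026 for TAP2 probe 3, which ran from -0.022 (without Creole HS replicate 1) to 0.121 when 1 array was left out. Read from another probe, SLA-3 gave -0.11 (probe 1) and -0.0055 (probe 6), and TAP2 gave -0.14 (probe 1) and -0.019 (probe 2). For Creole minus Large White, PSMB8 probe 3 ran from -0.060 (without Creole HS replicate 1) to 0.264 when 1 array was left out, PSMB9 probe 1 was 0.082 with the leukocyte covariate, SLA-8 was 0.034 read from probe 2, and TAP2 was 0.041 read from probe 1. Of the other values, 56 lost and 11 gained a call. No paired analysis was possible because the labels carry no replicate numbers.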

Other observations

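Of the partner and interferon lists, 1 gene each was called in a contrast of the F1 cross with a parent breed. Over all kept probes 0.525% were called against Large White and 0.477% against Creole pigs. SLA-6, a nonclassical heavy chain, fell by 0.49 ± 0.12 in F1 against Large White pigs (adjusted p = 0.0408 in limma), and MX2, an antiviral GTPase, was 0.81 ± 0.20 higher in F1 than in Creole pigs (adjusted p = 0.0485 in limma).

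Other probes of the array, not named for the 10 genes, match the members closely: 12 such probes overlap 13 member probes, and they entered none of the counts of members.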
